A study of Mus musculus with 27 samples.

Results

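The genes described here are 9 mouse genes of 3 cytokine systems: the interleukin-1 (IL-1) ligands Il1a and Il1b, their antagonist Il1rn, the IL-1 receptor genes Il1r1, Il1r2 and Il1rap, the tumor necrosis factor gene Tnf, the NF-κB feedback gene Tnfaip3 and Il12b. They were taken from the count table as the rows whose Ensembl identifier carries one of these symbols in the GENCODE M21 annotation, and are 9 of 55487 genes in the table. A gene was tested where 4 or more libraries gave it 10 or more counts, which 20271 genes passed, 8 of these 9 among them. Il12b is the gene left out by that filter, as it reached 10 counts in 3 libraries, and its values come from a separate test of every gene with at least 1 count.

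IL-1α and IL-1β bind the receptor IL-1R1, which needs the accessory protein encoded by Il1rap to signal through MyD88 and NF-κB. The product of Il1rn occupies IL-1R1 without signaling, and IL-1R2 is a decoy that binds IL-1 and does not signal. Tnf encodes TNF-α, another strong activator of NF-κB, Tnfaip3 encodes the ubiquitin-editing enzyme A20 that ends NF-κB signaling, and Il12b encodes the p40 subunit shared by IL-12 and IL-23. In the brain, microglia and infiltrating myeloid cells are known as main sources of these cytokines, and Il1r1 is known from endothelial cells and from neurons of the dentate gyrus.

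All mice were male C57Bl/6J wild-type animals, 8 weeks old, and received an infusion into the right lateral ventricle for 14 days at 0.25 μl per hour. They received PBS (5 cortices and 5 hippocampi), a human control IgG called pCtrl here (5 cortices and 4 hippocampi) or α-IgLON5#1, a pool of IgLON5-specific autoantibodies purified from patient plasma (4 cortices and 4 hippocampi). The labels call the control a non-reactive monoclonal IgG and the paper calls it IgG from healthy serum. RNA-seq was run on the tissue of the side opposite to the infusion, giving 27 libraries from 14 mice if the number in a label is the mouse's number, as assumed here.

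The libraries held 19385642 to 58550621 counts. The labels give neurons as the cell type, but the libraries are whole tissue: 6 astrocyte markers summed to 4190 to 6500 CPM (counts scaled to a common library size) and 6 oligodendrocyte markers to 1690 to 4580 CPM, beside 6200 to 9030 CPM for 7 neuronal markers. In such bulk tissue, fewer or more cells of a type cannot be told apart from less or more RNA per cell. The α-IgLON5#1 mice carry the numbers 8, 9, 16 and 17, the mice of the control groups numbers from 10 to 75, and both libraries of mouse 8 stand far above the rest for most of the cytokine genes below. Values without this mouse are therefore given beside the main ones, a choice made after seeing the data.

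In the mouse genome (GRCm38) the ligand genes are neighbors on the minus strand of chromosome 2, Il1a at 129299610 to 129309972 and Il1b at 129364570 to 129371139, and Il1rn lies on the same chromosome at 24336853 to 24351494. The receptor genes Il1r2 (40074079 to 40125231) and Il1r1 (40225080 to 40317257) are neighbors on chromosome 1, and Il1rap lies on chromosome 16 at 26581704 to 26730117. Tnf lies on chromosome 17 at 35199381 to 35202007, Tnfaip3 on chromosome 10 at 19000910 to 19015657 and Il12b on chromosome 11 at 44400063 to 44414033. Other annotated genes overlap Il1a (Gm14023), Il1b (Il1bos), Il1r1 (Gm38070), Il1r2 (Gm16894 and Gm37347) and Il1rap (Gm20319), and how the authors counted reads of such stretches is not given in the sources used here.

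The promoters of the cytokine genes and of Tnfaip3 are shown first, as the stretches in which motifs of inflammatory transcription factors were searched. Each window runs from 250 bases before to 50 bases after the start of the gene in RefSeq (build GRCm38.p6), 5′ to 3′ on the strand of the gene, and is the most 5′ window where a gene has several. Capitals mark matches, on either strand, to the NF-κB consensus, to the AP-1 motif TGANTCA, to the PU.1 core GAGGAA and to TATAAA, and no overlap between matches of different motifs was merged.
Il1a, chr2:129309923-129310222, minus strand: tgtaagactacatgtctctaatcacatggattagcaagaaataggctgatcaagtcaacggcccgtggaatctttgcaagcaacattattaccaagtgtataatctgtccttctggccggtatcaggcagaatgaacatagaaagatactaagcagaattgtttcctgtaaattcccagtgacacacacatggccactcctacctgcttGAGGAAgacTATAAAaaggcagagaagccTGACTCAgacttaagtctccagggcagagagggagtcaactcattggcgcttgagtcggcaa
Il1b, chr2:129371090-129371389, minus strand: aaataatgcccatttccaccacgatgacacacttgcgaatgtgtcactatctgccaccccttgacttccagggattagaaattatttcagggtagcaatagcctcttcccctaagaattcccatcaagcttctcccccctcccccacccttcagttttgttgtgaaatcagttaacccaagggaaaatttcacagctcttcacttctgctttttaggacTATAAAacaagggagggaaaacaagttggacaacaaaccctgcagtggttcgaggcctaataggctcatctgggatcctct
Il1rn, chr2:24336610-24336909, plus strand: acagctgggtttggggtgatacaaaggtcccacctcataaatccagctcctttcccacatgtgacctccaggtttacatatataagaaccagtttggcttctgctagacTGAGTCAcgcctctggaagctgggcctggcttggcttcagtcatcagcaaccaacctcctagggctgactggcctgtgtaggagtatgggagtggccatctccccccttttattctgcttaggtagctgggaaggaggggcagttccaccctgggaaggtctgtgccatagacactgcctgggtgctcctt
Tnf, chr17:35201958-35202257, minus strand: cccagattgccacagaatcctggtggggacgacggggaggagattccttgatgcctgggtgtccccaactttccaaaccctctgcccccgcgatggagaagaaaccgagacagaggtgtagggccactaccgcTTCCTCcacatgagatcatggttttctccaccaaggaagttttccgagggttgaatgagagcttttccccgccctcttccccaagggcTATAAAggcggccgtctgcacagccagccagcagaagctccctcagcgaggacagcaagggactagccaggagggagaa
Tnfaip3, chr10:19015361-19015660, minus strand: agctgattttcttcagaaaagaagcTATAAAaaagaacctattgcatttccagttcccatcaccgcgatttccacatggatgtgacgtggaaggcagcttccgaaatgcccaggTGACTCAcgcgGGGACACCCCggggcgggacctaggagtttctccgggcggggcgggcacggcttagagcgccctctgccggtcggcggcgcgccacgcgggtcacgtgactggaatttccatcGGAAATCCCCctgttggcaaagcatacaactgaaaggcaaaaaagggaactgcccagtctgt
Il12b, chr11:44399813-44400112, plus strand: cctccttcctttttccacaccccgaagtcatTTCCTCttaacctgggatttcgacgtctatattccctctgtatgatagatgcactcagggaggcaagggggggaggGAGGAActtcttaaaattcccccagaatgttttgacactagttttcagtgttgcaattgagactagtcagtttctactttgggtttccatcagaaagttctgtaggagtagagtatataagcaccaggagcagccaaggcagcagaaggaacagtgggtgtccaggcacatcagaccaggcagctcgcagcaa

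The TATAAA motif, the core of the TATA box, lay at positions -32 to -27 from the start of Il1a, -31 to -26 from that of Il1b and -29 to -24 from that of Tnf. It also matched at -225 to -220 in the window of Tnfaip3. Anywhere in the window, it occurs in 13.6% of the 32851 RefSeq promoter windows of this length. The window of Tnfaip3 held 2 matches to the NF-κB consensus, which is found in 4.51% of all windows, and a match to the AP-1 motif, which is found in 7.81%. The AP-1 motif was also present in the windows of Il1a and Il1rn, and the PU.1 core, present in 28.3% of all windows, in those of Il1a, Tnf and Il12b. The most 5′ windows of Il1r1, Il1r2 and Il1rap held none of the 4 motifs, and a further Il1r1 window held a match to the NF-κB consensus. A match describes the letters of the window, and a window without a match says nothing of the factor.

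Il1rap had the highest level of the 9 genes at baseline in both tissues. In PBS cortices the mean level per kilobase of exon was 3.93 CPM for Il1rap, 0.972 for Tnfaip3, 0.728 for Il1r1, 0.336 for Il1a, 0.291 for Il1r2, 0.163 for Il1b, 0.0391 for Tnf, 0.0252 for Il12b and 0.00121 for Il1rn. The ranges of Tnfaip3 and Il1r1 overlapped, as did those of Il1a, Il1r2 and Il1b, and those of Tnf, Il12b and Il1rn. In PBS hippocampi the order began with Il1rap at 7.21 CPM per kilobase and Il1r1 at 3.46, followed by Tnfaip3 at 0.977, Il1r2 at 0.246, Il1a at 0.214, Il1b at 0.088 and Tnf at 0.0371. There the ranges of Il1r2 and Il1a overlapped and those of Il1b and Tnf did too.

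Between the tissues of PBS mice 2 of 8 genes differed (edgeR, adjusted p under 0.05), a share near the 26.7% of all genes tested that did. Both are receptor genes. Il1r1 was higher in hippocampus by 2.25 on the log2 scale (SE 0.288, adjusted p = 1.29e-06) and Il1rap by 0.878 (SE 0.101, adjusted p = 2.76e-07), and for both genes every hippocampus lay above every cortex. The ligand genes and Tnf did not pass this test (Il1a -0.658, Il1b -0.85, Tnf 0.0579). Fitted with only the groups compared, Il1a passed it (-0.659, SE 0.213, adjusted p = 0.0367).

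Il1a encodes the IL-1 ligand that is active without cleavage. In cortex it read 0.752, 0.71, 0.437, 0.788 and 0.632 CPM in PBS mice 14, 32, 33, 38 and 74 and 0.626, 0.426, 0.683, 0.597 and 0.333 CPM in pCtrl mice 10, 11, 15, 37 and 75. The α-IgLON5#1 cortices of mice 8, 9, 16 and 17 read 6.11, 1.77, 1.83 and 1.38 CPM. All 4 lay above every control cortex, mouse 8 by far the highest.
In hippocampus, Il1a read 0.443, 0.427, 0.469, 0.416 and 0.353 CPM in the PBS mice in the same order, and 0.388, 0.752, 0.476 and 0.491 CPM in pCtrl mice 10, 15, 37 and 75. With α-IgLON5#1 it read 3.54, 3.49, 2.54 and 0.831 CPM. The groups again did not overlap, with mouse 17 closest to the controls and mouse 8 level with mouse 9.

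Il1a rose in all 4 comparisons. Its log2 fold change against pCtrl was 2.26 in hippocampus (SE 0.415, edgeR quasi-likelihood test, adjusted p = 0.000975) and 2.34 in cortex (SE 0.393, adjusted p = 0.000407). Against PBS it was 2.59 in hippocampus (adjusted p = 8.16e-05) and 2.05 in cortex (adjusted p = 0.00111). Without mouse 8 the values against pCtrl were 2.06 (adjusted p = 0.000164) and 1.60 (adjusted p = 0.00341), and no library left out alone ended a call of Il1a.

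Il1b encodes the IL-1 ligand that is released after cleavage by caspase-1. It read 0.157, 0.237, 0.504, 0.41 and 0.247 CPM in PBS cortices of mice 14, 32, 33, 38 and 74 and 0.313, 0.639, 0.636, 0.421 and 0.2 CPM in pCtrl cortices of mice 10, 11, 15, 37 and 75. In α-IgLON5#1 cortices it read 42.0, 3.18, 0.976 and 2.03 CPM in mice 8, 9, 16 and 17. Mouse 8 held 1544 of the 1786 Il1b counts of the group, and the other 3 mice still lay above every control.
The hippocampi of the PBS mice read 0.171, 0.197, 0.147, 0.208 and 0.118 CPM and those of pCtrl mice 10, 15, 37 and 75 read 0.245, 0.489, 0.333 and 0.0982 CPM. Those of the α-IgLON5#1 mice read 22.6, 2.53, 2.27 and 1.52 CPM. No α-IgLON5#1 hippocampus overlapped with a control, and mice 9, 16 and 17 alone averaged 2.11 CPM ± 0.527 (SD, n = 3) beside 0.291 CPM ± 0.163 (SD, n = 4) in pCtrl.

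Against pCtrl the log2 fold change of Il1b was 4.56 in hippocampus (SE 1.0, adjusted p = 0.00559) and 4.76 in cortex (SE 0.917, adjusted p = 0.00186, edgeR). Against PBS it was 5.37 (adjusted p = 0.000869) and 5.27 (adjusted p = 0.000753). With both libraries of mouse 8 left out these values were smaller and passed the test in all 4 comparisons: 2.79 (SE 0.408, adjusted p = 7.91e-05) and 2.20 (SE 0.378, adjusted p = 0.000962) against pCtrl, and 3.60 (adjusted p = 2.05e-06) and 2.71 (adjusted p = 0.000118) against PBS. Leaving out only the mouse 8 library of the tissue compared, which keeps its other library in the shared estimate of spread, gave the same fold changes without a call against pCtrl (2.79 with adjusted p = 0.0923 in hippocampus, 2.20 with adjusted p = 0.129 in cortex). Fitted with only the groups compared, Il1b was not called against pCtrl in cortex (4.78, adjusted p = 0.0553). Il1bos, the gene antisense to Il1b, held 1 to 13 counts per library. In mouse 8 it had 6 counts in cortex (0.163 CPM) and 7 in hippocampus, where its 0.345 CPM were the highest of all 27 libraries. Whether the counting used strand is not given in the sources used here, and reads of the overlapping stretch cannot be told apart without it.

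The ratio of the ligand genes to each other was also read in each library. Per kilobase, the ratio of Il1a to Il1b was 1.38 to 4.83 in the 9 control hippocampi and 0.152, 1.33, 1.08 and 0.529 in α-IgLON5#1 mice 8, 9, 16 and 17, with no overlap. In cortex it was 0.644 to 4.64 in the controls and 0.141, 0.538, 1.81 and 0.658 in α-IgLON5#1 mice, with overlap. These ratios are a description and were not tested.

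Il1rn, the receptor antagonist, was near 0 without α-IgLON5#1. Its counts were 0, 0, 1, 0 and 0 in PBS cortices, 0, 2, 2, 0 and 0 in pCtrl cortices, and 660, 31, 5 and 13 in the α-IgLON5#1 cortices of mice 8, 9, 16 and 17. In hippocampi they were 1, 1, 0, 1 and 0 with PBS, 2, 3, 2 and 1 with pCtrl, and 193, 11, 12 and 8 with α-IgLON5#1. Every α-IgLON5#1 library lay above every control in CPM in both tissues, from 0.119 CPM in the cortex of mouse 16 to 17.9 CPM in that of mouse 8.

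Il1rn rose by 5.79 on the log2 scale in hippocampus (SE 1.49, adjusted p = 0.0181) and by 7.34 in cortex (SE 1.52, adjusted p = 0.00377) against pCtrl, by edgeR. The PBS groups held 3 counts in hippocampus and 1 count in cortex in all. Against them, the counts pooled over libraries and scaled to depth were 141 times higher in hippocampus (95% interval 47.6 to 689, covering counting error only). In cortex they were 736 times higher (132 to 29100). The edgeR test of the log2 fold change against PBS gave adjusted p = 0.00687 in hippocampus and 0.00185 in cortex. Without mouse 8 the log2 fold changes against pCtrl were 3.04 (adjusted p = 0.0192) and 3.91 (adjusted p = 0.00482), and against PBS 4.38 (adjusted p = 0.0016) and 5.55 (adjusted p = 0.000712). The hippocampal call against pCtrl was also lost when pCtrl mouse 10 (adjusted p = 0.0606) or 37 (adjusted p = 0.0658) was left out, and the calls of all 4 comparisons were lost without the mouse 8 library of that tissue alone (adjusted p = 0.115 to 0.329). Fitted with only the groups compared, Il1rn was not called against pCtrl in hippocampus (5.78, adjusted p = 0.0803) or cortex (7.35, adjusted p = 0.0762), nor against PBS in cortex (adjusted p = 0.0584).

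The antagonist stayed well below its ligand. Per kilobase, Il1rn stood at 0.147, 0.121, 0.042 and 0.0396 of Il1b in the α-IgLON5#1 cortices of mice 8, 9, 16 and 17 and at 0.145, 0.0842, 0.0559 and 0.052 in their hippocampi. The ratio was highest in mouse 8, which also had most Il1b, in both tissues. In controls, where few counts stand behind it, it ranged from 0 to 0.0574 in cortex and from 0 to 0.0861 in hippocampus. The merged exons span 5535 bases for Il1rn and 1907 for Il1b. In raw counts, the α-IgLON5#1 ratios were 0.427, 0.352, 0.122 and 0.115 in cortex and 0.42, 0.244, 0.162 and 0.151 in hippocampus, in the same order of mice.

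Tnf was at or near 0 in most control libraries. Its counts were 4, 0, 3, 3 and 0 in PBS cortices and 0, 0, 1, 1 and 1 in pCtrl cortices, against 440, 61, 5 and 42 in the α-IgLON5#1 cortices of mice 8, 9, 16 and 17. In hippocampi they were 1, 5, 4, 0 and 3 with PBS, 0, 3, 0 and 0 with pCtrl, and 148, 16, 6 and 7 with α-IgLON5#1. In CPM the lowest α-IgLON5#1 library lay above the highest pCtrl library in both tissues. Against PBS this held in hippocampus (lowest α-IgLON5#1 value 0.184 CPM, highest PBS value 0.117 CPM), whereas the cortex of mouse 16 (0.119 CPM) fell below that of PBS mouse 14 (0.125 CPM).

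The pooled Tnf counts, scaled to depth, were 102 times those of pCtrl in hippocampus (95% interval 34.4 to 500, counting error only). In cortex they were 178 times those of pCtrl (60.7 to 867), and each ratio stands against 3 pCtrl counts in all. Mouse 8 held 148 of the 177 hippocampal counts and 440 of the 548 cortical counts. The edgeR test of the log2 fold change against pCtrl gave adjusted p = 0.00715 in hippocampus and 0.00182 in cortex. Against PBS the log2 fold change was 4.92 in hippocampus (SE 1.19, adjusted p = 0.0114) and 5.85 in cortex (SE 1.18, adjusted p = 0.00256, edgeR). Without mouse 8, Tnf was still called against pCtrl in hippocampus (4.27, adjusted p = 0.0314) and cortex (5.40, adjusted p = 0.00125) and against PBS in cortex (3.91, adjusted p = 0.00383), but not against PBS in hippocampus (2.48, adjusted p = 0.177). This fit kept the genes of the main one. Tnf reached 10 counts in 5 libraries, both of mouse 8 among them, and would not pass the filter without that mouse. In the test of every gene with at least 1 count, without mouse 8, Tnf was at 4.3 (adjusted p = 0.0126) and 5.42 (adjusted p = 0.000155) against pCtrl, hippocampus first. Against PBS it was at 2.51 (adjusted p = 0.143) and 3.93 (adjusted p = 0.000873). With only the mouse 8 library of the tissue left out, it was lost against pCtrl in hippocampus (adjusted p = 0.154) and against PBS in both tissues (adjusted p = 0.453 and 0.0805). Fitted with only the groups compared, it was lost against pCtrl in hippocampus (adjusted p = 0.0741).

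Il12b, below the filter, was carried by mouse 8. Its counts were 229, 5, 2 and 11 in the α-IgLON5#1 cortices of mice 8, 9, 16 and 17, beside 1, 0, 2, 3 and 2 with PBS and 1, 0, 0, 1 and 0 with pCtrl. In hippocampi they were 63, 0, 4 and 5 with α-IgLON5#1, 0, 2, 0, 0 and 0 with PBS and 2, 6, 0 and 0 with pCtrl. In cortex all 4 α-IgLON5#1 values exceeded those of pCtrl, in hippocampus mouse 9 had none, and mouse 8 held 63 of the 72 hippocampal counts.

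In the test of every gene with at least 1 count, Il12b passed in 3 comparisons. The log2 fold change was 5.01 against PBS in cortex (SE 1.14, adjusted p = 0.00885) and 4.06 against pCtrl in hippocampus (SE 1.28, adjusted p = 0.0753). Pooled and scaled to depth, its counts were 120 times those of pCtrl in cortex (95% interval 33.0 to 1000, counting error only). In hippocampus they were 68.0 times those of PBS (18.2 to 572), and each ratio stands against 2 control counts. The edgeR test of the log2 fold change gave adjusted p = 0.0042 and 0.0245 in these comparisons. Without mouse 8 none of the 4 comparisons passed (adjusted p = 0.216 to 0.929).

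**Figure D1:**
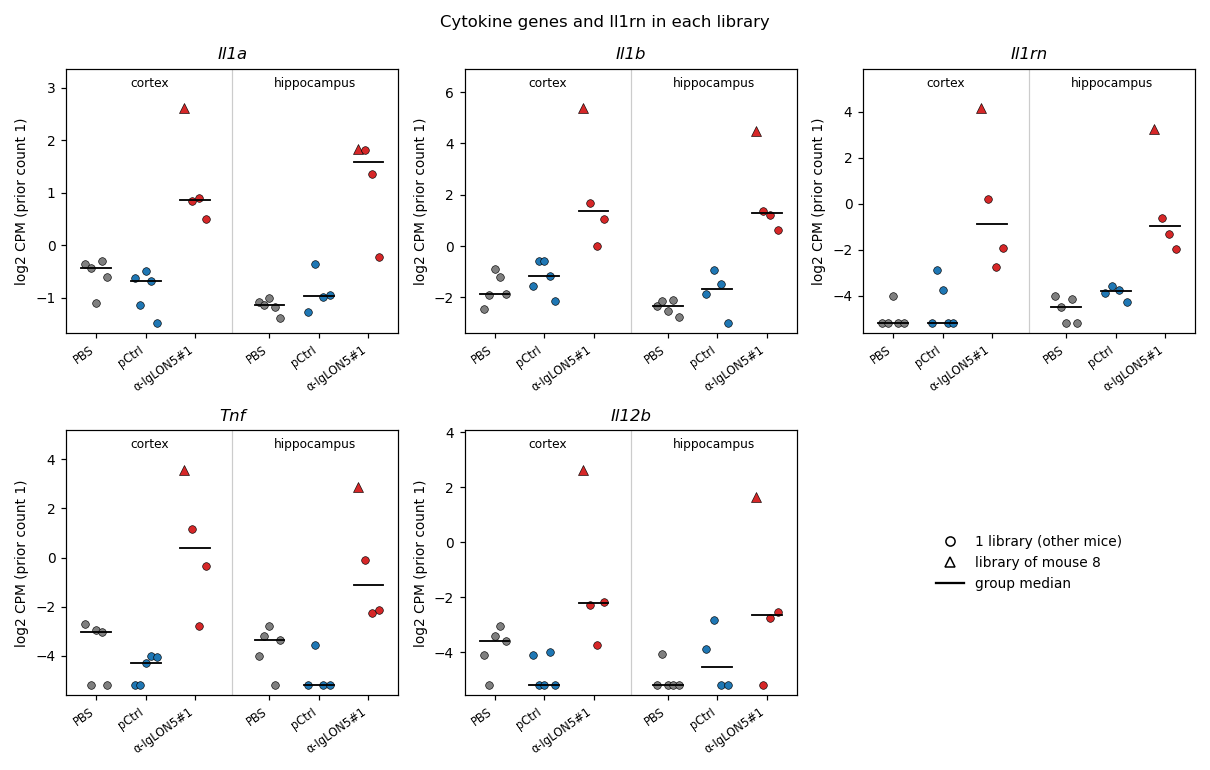
Log2 CPM (prior count 1) of Il1a, Il1b, Il1rn, Tnf and Il12b, 1 point per library in cortex and hippocampus, grey for PBS, blue for pCtrl and red for α-IgLON5#1, with triangles for mouse 8 and bars at group medians. Mouse 8 is highest in every panel (42.0 CPM of Il1b in cortex), and the other α-IgLON5#1 libraries lie above the controls for Il1a, Il1b and Il1rn and mix with them for Il12b.

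Il1r1, the signaling receptor, read 3.91, 3.99, 5.48, 6.05 and 3.74 CPM in PBS cortices and 3.13, 3.83, 4.43, 4.95 and 5.29 CPM in pCtrl cortices. In the α-IgLON5#1 cortices of mice 8, 9, 16 and 17 it read 18.1, 4.4, 7.07 and 7.82 CPM. Mice 8, 16 and 17 exceeded all controls and mouse 9 lay among them.
In hippocampus the values were 33.4, 17.9, 19.03, 19.4 and 20.4 CPM with PBS and 11.8, 24.1, 10.2 and 16.4 CPM with pCtrl, and those of α-IgLON5#1 were 30.8, 24.2, 21.5 and 30.1 CPM. The hippocampal groups overlapped, with PBS mouse 14 the highest of all.

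Il1r1 was called higher in 1 comparison, cortex against pCtrl (log2 fold change 1.11, SE 0.303, edgeR, adjusted p = 0.0362), and missed the threshold in cortex against PBS (1.02, SE 0.299, adjusted p = 0.0666). In cortex against PBS it was called by DESeq2 (1.02, adjusted p = 0.0436) and in the edgeR test of every gene with at least 1 count (1.05, adjusted p = 0.0318). The call against pCtrl was lost without mouse 8 (0.584, adjusted p = 0.38) and also without pCtrl mouse 10 (adjusted p = 0.123), 11 (0.0819), 15 (0.0622) or 37 (0.0607) or with only the groups compared in the fit (adjusted p = 0.145), whereas the value against PBS passed without α-IgLON5#1 mouse 9 (adjusted p = 0.0113) or 16 (adjusted p = 0.0449). In hippocampus the values were 0.77 against pCtrl (95% CI 0.185 to 1.35, adjusted p = 0.118), which passed without pCtrl mouse 15 (1.06, adjusted p = 0.0323), and 0.28 against PBS (-0.27 to 0.83).

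Il1r2, the decoy receptor, was highest in mouse 8. It read 1.6 CPM in the cortex of mouse 8 and 0.541, 0.5 and 0.628 CPM in those of mice 9, 16 and 17, beside 0.25 to 0.798 CPM in the 10 control cortices. The hippocampi read 1.62, 0.394, 0.306 and 0.458 CPM with α-IgLON5#1 and 0.381 to 0.857 CPM with PBS or pCtrl. No comparison passed the test. In hippocampus the log2 fold change turned from 0.201 (95% CI -0.621 to 1.02) to -0.579 against pCtrl and from 0.51 (-0.298 to 1.32) to -0.271 against PBS without mouse 8. In cortex it went from 0.999 (0.213 to 1.79, adjusted p = 0.206) to 0.46 against pCtrl and from 0.55 (-0.2 to 1.3) to 0.00949 against PBS.

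Il1rap, the accessory chain, read 40.4 to 48.4 CPM in α-IgLON5#1 cortices and 39.3 to 48.2 CPM in the control cortices, and 73.4 to 83.3 CPM in α-IgLON5#1 hippocampi and 59.7 to 97.6 CPM in the control hippocampi. Its log2 fold change against pCtrl was 0.118 in hippocampus (95% CI -0.101 to 0.336) and 0.0675 in cortex (-0.143 to 0.278), and against PBS -0.0851 (-0.293 to 0.123) and -0.0291 (-0.239 to 0.181). The intervals lie within a fold of 2 in either direction, and mouse 8 did not stand apart for this gene.

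Tnfaip3 (A20) read 7.86, 7.89, 6.96, 6.21 and 6.21 CPM in PBS cortices and 7.23, 5.64, 7.77, 5.58 and 7.65 CPM in pCtrl cortices. The α-IgLON5#1 cortices of mice 8, 9, 16 and 17 read 31.2, 14.2, 6.93 and 8.68 CPM. Mouse 16 lay among the controls and the other 3 above them.
In hippocampus it read 6.14, 8.69, 7.62, 6.14 and 6.71 CPM with PBS, 7.05, 6.81, 7.21 and 7.56 CPM with pCtrl, and 20.97, 17.2, 11.0 and 7.97 CPM with α-IgLON5#1. All 4 α-IgLON5#1 hippocampi exceeded those of pCtrl, and mouse 17 fell below PBS mouse 32.

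Tnfaip3 was called higher in cortex against pCtrl (log2 fold change 1.16, SE 0.293, adjusted p = 0.022) and PBS (1.11, SE 0.292, adjusted p = 0.0288), and lay at the threshold in hippocampus (0.986, SE 0.311, adjusted p = 0.0537 against pCtrl and 1.0, SE 0.294, adjusted p = 0.0511 against PBS, edgeR). By DESeq2 it was called in hippocampus against PBS (1.01, adjusted p = 0.0323) and stayed below a fold of 2 against pCtrl (0.99, adjusted p = 0.0355). Without mouse 8 the cortical values fell to 0.534 (adjusted p = 0.263) and 0.488 (adjusted p = 0.503). The cortical calls were also lost without pCtrl mouse 11 (adjusted p = 0.0612) or 37 (0.0657) and without PBS mouse 33 (0.0668), 38 (0.0689) or 74 (0.0857), and with only the groups compared in the fit (0.16 against pCtrl and 0.254 against PBS). Without mouse 8 the hippocampal values were 0.739 (adjusted p = 0.0516) against pCtrl and 0.753 (adjusted p = 0.0341) against PBS, both below a fold of 2. They passed without α-IgLON5#1 mouse 16 or 17 (log2 fold changes 1.09 and 1.19 against pCtrl and 1.11 and 1.2 against PBS, adjusted p = 0.0144 to 0.0364).

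**Figure D2:**
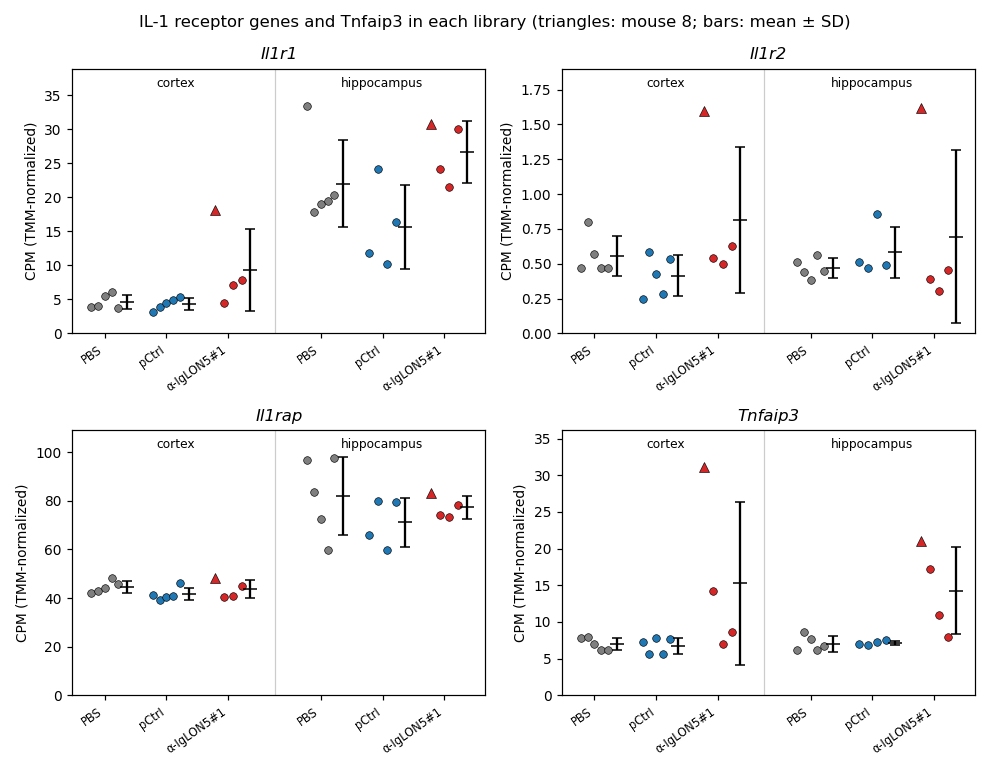
CPM (TMM-normalized) of Il1r1, Il1r2, Il1rap and Tnfaip3, 1 point per library in cortex and hippocampus, grey for PBS, blue for pCtrl and red for α-IgLON5#1, with triangles for mouse 8 and bars for mean ± SD. Il1r1 and Il1rap sit higher in hippocampus than in cortex in every group, Il1r2 reaches 1.6 CPM only in mouse 8, and Il1rap does not separate the treatments.

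Counted together, 4 of 8 genes (Il1a, Il1b, Il1rn and Tnf) were called higher in hippocampus with α-IgLON5#1 than with pCtrl (fold above 2 and adjusted p under 0.05), a rule that 2.21% of all genes tested met in that direction. Against PBS hippocampi the same 4 were called (2.56% of all genes). In cortex 6 of 8 were called against pCtrl, with Il1r1 and Tnfaip3 added (2.14% of all genes), and 5 against PBS, with Tnfaip3 added (2.24%). None was lower. The median log2 fold change of the 8 genes was 1.62, 1.79, 1.75 and 1.58 in these comparisons, beside 0.00125, -0.00663, -0.00661 and -0.02 for all genes. The comparisons share their α-IgLON5#1 libraries and are not independent of each other. Il1rn and Tnf reached 10 counts only in α-IgLON5#1 libraries (6 and 5 of them). The filter thus let them be tested through the group where they are high, so their part in these counts and medians was partly set beforehand. With a score of tissue composition as covariate, 0 were called against pCtrl in hippocampus and 1 in cortex, namely Il1a (2.03, adjusted p = 0.00703). The hippocampal values against pCtrl were then 1.76 for Il1a (adjusted p = 0.107), 3.68 for Il1b (adjusted p = 0.309), 3.52 for Il1rn (adjusted p = 0.58) and 4.53 for Tnf (adjusted p = 0.385). Against PBS, Il1a, Il1b, Il1rn, Tnf and Tnfaip3 were called with the covariate in both tissues (Il1b at 5.45 with adjusted p = 0.000813 in hippocampus and 5.09 with adjusted p = 0.00147 in cortex). Among mice 8 to 17 alone, which leave 2 pCtrl hippocampi and 3 pCtrl cortices, 0 were called in either tissue, with Il1a at 2.15 (adjusted p = 0.224) and 2.22 (adjusted p = 0.16) and Il1b at 4.24 (adjusted p = 0.343) and 4.52 (adjusted p = 0.242).

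Without mouse 8, and with the genes of the main fit kept, Il1a, Il1b, Il1rn and Tnf were called against pCtrl in hippocampus (1.8% of all genes) and in cortex (1.25%). Against PBS they were called in cortex (1.52%), and without Tnf in hippocampus (2.2%). Tnf would not pass the count filter without mouse 8. Every α-IgLON5#1 library exceeded every control library for 5 of the 8 genes in hippocampus against pCtrl (6.68% of all genes), 4 against PBS (4.49%), 4 in cortex against pCtrl (3.68%) and 3 against PBS (3.14%).

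Infusion of the control antibody was compared with PBS to see what an unrelated IgG does to these genes. No gene was called between pCtrl and PBS in hippocampus (0.0641% of all genes) or cortex (0.0% of all genes), with 0 of 8 at an unadjusted p under 0.05 in either tissue by edgeR, beside 2828 of the 20271 genes tested in hippocampus and 1650 in cortex, and 0 called by DESeq2. The intervals were narrow for Tnfaip3 (log2 fold change 0.0139, 95% CI -0.563 to 0.591 in hippocampus) and wide for genes with few counts, such as Il1b (0.808, -1.66 to 3.27) and Tnf (-1.79, -6.3 to 2.72).

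The effect of α-IgLON5#1 against pCtrl was not shown to differ between hippocampus and cortex for any of the 8 genes (0 called, 0.0% of all genes, lowest adjusted p = 0.664, edgeR interaction term), nor was that against PBS (0 called, 0.00493% of all genes). In the fit without pairing, the interaction against pCtrl had 0 of 8 genes at an unadjusted p under 0.05, beside 2158 of all 20271. Hippocampus minus cortex, the difference of log2 fold changes was -0.083 for Il1a (95% CI -1.21 to 1.04), -0.206 for Il1b (-2.99 to 2.58) and -0.623 for Tnf (-8.42 to 7.17) in the fit without pairing. The animal was also used as a block, which assumes that both tissues of a number came from the same mouse. These differences were then 0.0578 for Il1a (SE 0.411), 0.203 for Il1b (SE 0.454) and -0.592 for Tnf (SE 1.89), with none called. That of Il1r2 was -0.946 against pCtrl with the block (SE 0.399, edgeR, unadjusted p = 0.0306, adjusted p = 0.378). Without mouse 8 and without the block, the differences of Il1a and Il1b were 0.463 and 0.591, so their direction is not set by the data.

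**Figure D3:**
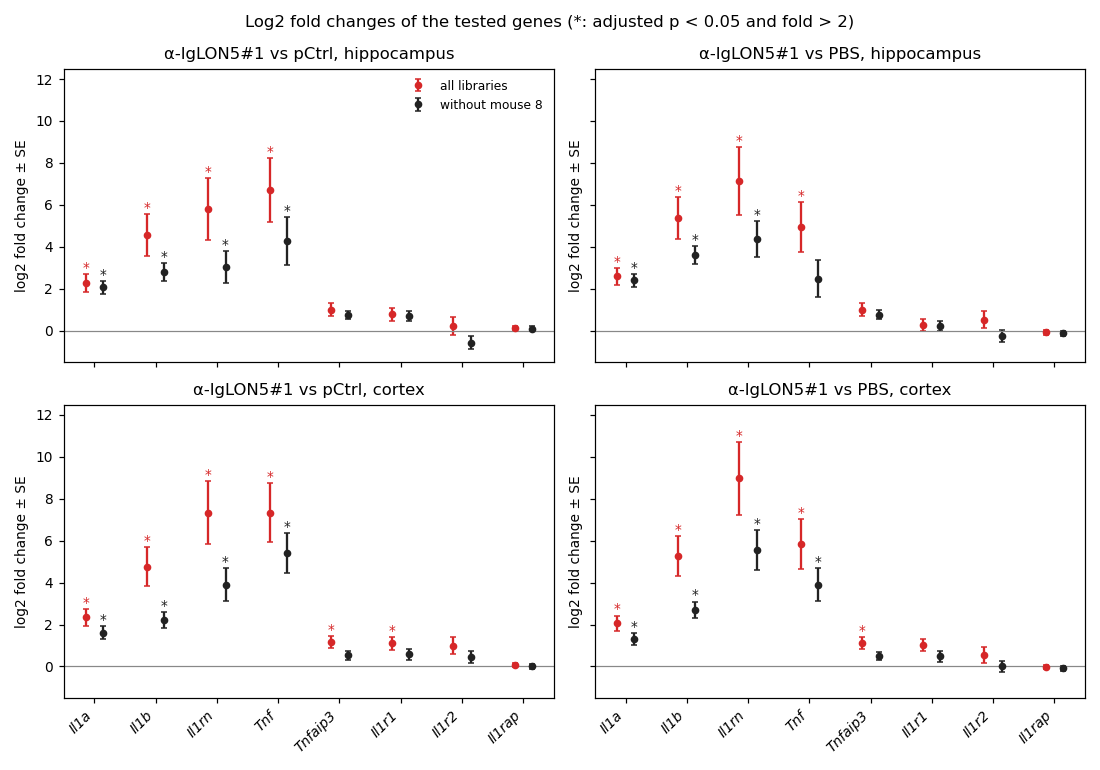
Log2 fold change ± SE of the 8 tested genes in the 4 comparisons of α-IgLON5#1 with a control group, red for all libraries and black without both libraries of mouse 8, with a star where the adjusted p is under 0.05 and the fold above 2. Without mouse 8, Il1a goes from 2.26 to 2.06 against pCtrl in hippocampus and from 2.34 to 1.60 in cortex, Il1b, Il1rn and Tnf fall but keep a star in most panels, and Tnfaip3 and Il1r1 lose theirs in cortex.

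The genes around these cytokines were read from lists of known pathway members, given as counts called higher in hippocampus against pCtrl and PBS and in cortex against pCtrl and PBS. Over all genes tested, 2.21%, 2.56%, 2.14% and 2.24% were called higher in these comparisons, and 1.8%, 2.2%, 1.25% and 1.52% without mouse 8. No gene of these 9 lists was called lower in any of the 4 comparisons. Of the 3 tested genes among the other IL-1 family ligands and the IL-18 binding protein, 0 were called in each, and Il18 (log2 fold change 0.0241 in hippocampus and -0.0395 in cortex against pCtrl) and the alarmin gene Il33 (-0.346 and 0.0279) stayed below the threshold. Of the 7 other receptors of the family, 0, 2, 1 and 2 were called, and 1, 2, 0 and 1 without mouse 8. Il18rap, the accessory chain of the IL-18 receptor, was the one called in cortex against pCtrl (2.59, adjusted p = 0.0343), and it was not called without mouse 8 (1.34, adjusted p = 0.363).

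The inflammasome and IL-1 release list, which holds the machinery that matures IL-1β, had 5, 5, 2 and 2 of 9 tested genes higher, and 4, 5, 2 and 1 without mouse 8. Casp4, the caspase that senses intracellular lipopolysaccharide, rose by 2.69 in hippocampus (adjusted p = 0.000622) and 2.76 in cortex (adjusted p = 0.00041) against pCtrl. The sensor gene Nlrp3 rose by 1.82 (adjusted p = 0.0165) and 2.44 (adjusted p = 0.0012). Both genes were called without mouse 8 in both tissues, at 2.15 and 1.96 for Casp4 and 1.27 and 1.39 for Nlrp3. The adaptor gene Pycard (1.16, adjusted p = 0.00242) and Nlrp1b (1.27, adjusted p = 0.00229) were called in hippocampus and not in cortex (0.701 and 0.812), a difference between tissues that did not pass the test itself (adjusted p = 0.646 and 0.683). Casp1, which encodes the enzyme that cleaves IL-1β, did not pass in either tissue (-0.0972 and 0.353).

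Downstream of the receptor, 1, 1, 1 and 2 of 14 genes of the MyD88, IRAK, TRAF6 and TAK1 list were called, and 1, 1, 0 and 0 without mouse 8. The called gene against pCtrl was Irak3, which encodes an inhibitor of IL-1 receptor signaling (1.65 with adjusted p = 0.00143 in hippocampus, 1.46 with adjusted p = 0.00294 in cortex). Without mouse 8 it was at 1.48 (adjusted p = 0.000657) in hippocampus and, below a fold of 2, at 0.976 (adjusted p = 0.0366) in cortex. The median of this list was 0.0868 and 0.00909 against pCtrl, near that of all genes. The TNF list, with receptors and proximal signaling, had 3, 4, 4 and 5 of 11 genes higher, and 0, 3, 0 and 1 without mouse 8. Its called genes were led by Birc3, an inhibitor of apoptosis (1.38 with adjusted p = 0.0434 and 1.81 with adjusted p = 0.00574 against pCtrl), and the TNF receptor gene Tnfrsf1b (1.27 with adjusted p = 0.0117 and 1.45 with adjusted p = 0.0024). Without mouse 8 both were below a fold of 2 in both tissues (0.855 and 0.936 for Birc3, 0.97 and 0.726 for Tnfrsf1b).

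Feedback genes of NF-κB moved in small number. Of 12 partners of A20 and NF-κB inhibitors, 1, 1, 3 and 3 were called, among them Nfkbiz, an atypical IκB (1.16 with adjusted p = 0.00203 in hippocampus and 1.09 with adjusted p = 0.00252 in cortex against pCtrl). Without mouse 8 these counts were 1, 1, 0 and 0, with Nfkbiz at 1.07 in hippocampus and 0.716 in cortex (adjusted p = 0.0335). Of the 5 NF-κB subunits only Nfkb2, the precursor of p52, was called, in all 4 comparisons (1.6 with adjusted p = 0.0101 and 1.69 with adjusted p = 0.00427 against pCtrl). Without mouse 8 the subunit list kept 1 call in each hippocampal comparison and none in cortex.

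Of the 7 tested genes of the IL-12 family and its receptors, 1 was called in each comparison with and without mouse 8, namely Ebi3, the subunit shared by IL-27 and IL-35 (2.27 with adjusted p = 0.000511 in hippocampus and 2.15 with adjusted p = 0.000974 in cortex against pCtrl). Ifng, the interferon γ gene that IL-12 induces, was at 0 counts in all hippocampal libraries and held at most 1 count in a cortical library.

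The list of genes known to respond to IL-1 and TNF had 5, 6, 7 and 7 of 13 tested genes higher, and 5, 5, 3 and 6 without mouse 8. The acute phase gene Saa3 rose most (6.94, SE 1.03, adjusted p = 7.49e-05 in hippocampus and 8.22, SE 1.08, adjusted p = 3.05e-05 in cortex against pCtrl), from 1 to 20 counts in pCtrl hippocampi to 100 to 762 with α-IgLON5#1. Steap4, a metalloreductase gene (4.05 with adjusted p = 0.00235 and 3.26 with adjusted p = 0.0075), Lcn2, which encodes lipocalin-2 (3.66 with adjusted p = 0.0116 and 4.32 with adjusted p = 0.00325), and the adhesion gene Icam1 (1.78 with adjusted p = 0.00587 and 2.09 with adjusted p = 0.000863) followed. In cortex, Steap4 (adjusted p = 0.0738) and Lcn2 (adjusted p = 0.054) were not called without mouse 8. Il6 was below the filter, at 2 to 19 counts in α-IgLON5#1 hippocampi and 4 to 76 in the cortices, beside 0 to 6 and 0 to 3 with pCtrl. In the test of every gene it passed in cortex against pCtrl (3.79, adjusted p = 0.0408) and not in hippocampus (1.98, adjusted p = 0.412). No value without mouse 8 is given here for Il6.

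**Figure D4:**
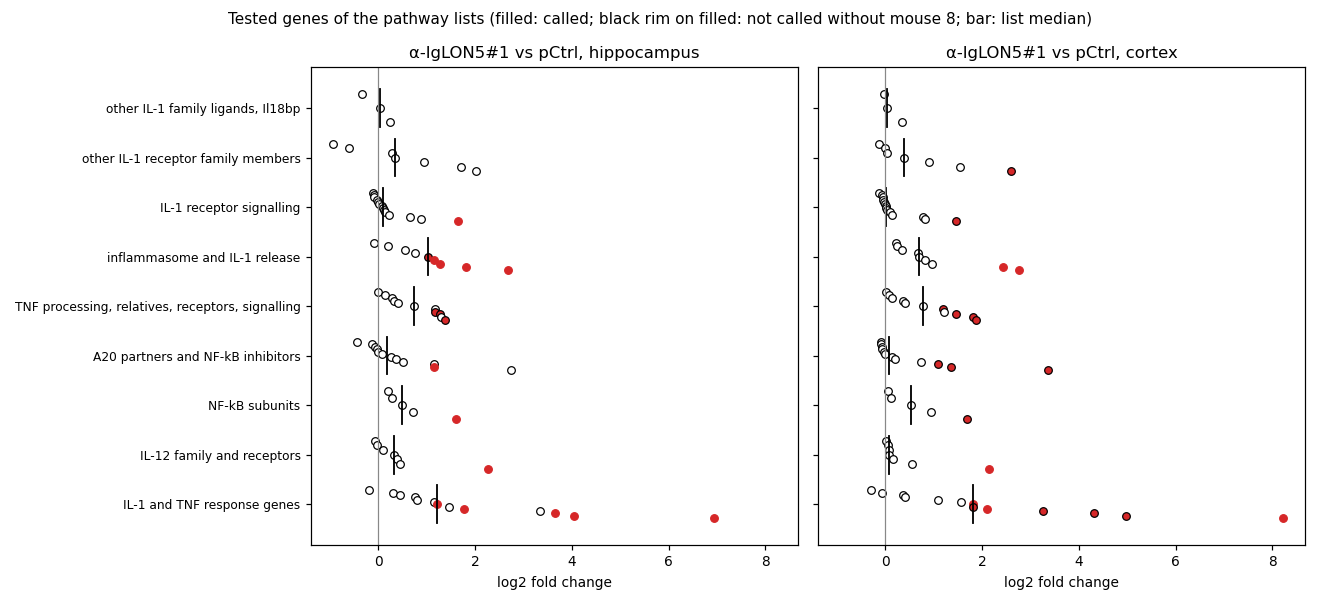
Log2 fold changes against pCtrl of the tested genes of 9 pathway lists, hippocampus left and cortex right, filled where called, with a black rim on filled points not called without mouse 8 and a bar at the list median. The response genes reach furthest (Saa3 at 6.94 and 8.22), while the ligand and receptor signaling lists center near 0.

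The genes whose log2 CPM ran most like that of a cytokine over the 27 libraries are given as a description, since all points share depth and treatment and mouse 8 weighs on each. For Il1b these were the Fc receptor gene Fcgr2b (Pearson r = 0.972), Tnfrsf1b (0.959) and Clec5a (0.952), for Il1a Ppp1r18 (0.947), the lipopolysaccharide co-receptor gene Cd14 (0.945) and Tgfb1 (0.941), and for Il1rn Icam1, Msn (both 0.963) and Tnfrsf1b (0.955). Tnf ran with Acod1 (0.92), Dtx3l (0.919) and Icam1 (0.918), and Tnfaip3 with the interferon-induced gene Irgm1 (0.936), Slfn9 (0.925) and Slc15a3 (0.923). For the receptor genes, whose levels differ by tissue, they were Nhsl1 (0.955), Dock11 (0.953) and Ehd1 (0.95) for Il1r1, Sema5a (0.975), Dock10 (0.974) and Foxo1 (0.972) for Il1rap, and Slc1a4 (0.777), Gbp4 (0.768) and Angptl4 (0.756) for Il1r2. Taken on the deviations from the group means, Fcgr2b stayed first for Il1b (0.931), Slc1a4 for Il1r2 (0.817) and Irgm1 for Tnfaip3 (0.894). For the other genes another one came first, namely Msn for Il1a (0.824), S1pr3 for Il1rn (0.912), Irgm1 for Tnf (0.862), Lix1l for Il1r1 (0.804) and Zfp26 for Il1rap (0.823).

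Markers of other immune cells were high in mouse 8 as well. The summed level of 8 monocyte markers was 318 CPM in its cortex and 250 CPM in its hippocampus, beside 82.7 to 205 and 107 to 190 CPM in the other α-IgLON5#1 mice, and 1, 3, 5 and 5 of the 8 were called higher in the 4 comparisons (1, 3, 1 and 3 without mouse 8), where 2.14% to 2.56% of all genes tested were called (1.25% to 2.2% without mouse 8). The control libraries overlapped with this range, at 111 to 259 CPM in PBS cortices and 180 to 202 CPM in pCtrl hippocampi. The 10 neutrophil markers summed to 15.9 and 8.81 CPM in mouse 8, beside 0.902 to 2.38 and 0.732 to 2.84 CPM in the other α-IgLON5#1 mice and 1.04 to 6.02 CPM in the controls, 0 of the 5 tested were called, and Ly6g was at 0 in all α-IgLON5#1 cortices. The 8 B cell markers summed to 9.54 and 12.1 CPM in mouse 8 and 3.79 to 9.63 CPM in the other α-IgLON5#1 libraries, all above the 1.98 to 3.22 CPM of the controls, and 5, 5, 3 and 2 of the 7 tested were called (2, 4, 2 and 2 without mouse 8).

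The 8 dendritic cell markers summed to 25.2 to 31.5 CPM in α-IgLON5#1 hippocampi, above the 18.6 to 23.6 CPM of the controls, and to 24.7 to 27.8 CPM in the cortices, within the 20.9 to 29.5 CPM of the controls. Of the 7 tested, 2, 3, 1 and 2 were called (1 in each without mouse 8), Itgax in all 4. The 8 T cell markers summed to 3.86 to 8.27 CPM in α-IgLON5#1 hippocampi beside 2.31 to 4.04 CPM in the controls, and to 8.09 to 10.1 beside 5.55 to 8.73 CPM in cortex, with 1, 2, 1 and 1 of 4 tested called (0, 2, 0 and 0 without mouse 8). The 8 border macrophage markers read 46.5 CPM in the cortex and 37.4 CPM in the hippocampus of mouse 8, beside 8.7 to 31.5 and 6.87 to 32.0 CPM in the other α-IgLON5#1 mice and 17.5 to 39.5 and 10.8 to 32.8 CPM in the controls. In each comparison, with and without mouse 8, 1 of them was called higher (Ms4a7) and 1 lower (Lyve1). Mouse 8 had the highest sum of the α-IgLON5#1 mice for these 3 lists in both tissues.

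The 10 homeostatic microglia markers, summed, read 339 to 568 CPM in α-IgLON5#1 hippocampi, above all pCtrl (276 to 318 CPM) and PBS hippocampi (255 to 311 CPM). In cortex they read 319 to 364 CPM with α-IgLON5#1, 281 to 346 CPM with pCtrl and 278 to 304 CPM with PBS. In hippocampus 5 of the 10 had an adjusted p under 0.05 against pCtrl and 5 against PBS, below a fold of 2 (0 called), with a median log2 fold change over the list of 0.478 and 0.619. In cortex 0 and 3 had such a p (medians 0.0947 and 0.129), also with 0 called, and without mouse 8 the calls were 2 against PBS hippocampi and 0 in the other comparisons. How many of all genes had an adjusted p under 0.05 by edgeR, at any fold, is not given here. By DESeq2 it was 1847 against pCtrl and 1039 against PBS in hippocampus, and 917 and 693 in cortex, of 20271 tested. Unlike the cytokines, these markers were lowest in mouse 8 among the α-IgLON5#1 mice in both tissues (319 CPM in cortex and 339 CPM in hippocampus). The part of these cells in the cytokine levels was not tested.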

How the data were processed

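The authors sequenced 27 stranded mRNA libraries as paired-end reads and, per the paper, aligned them to GRCm38 with STAR. The deposited values are raw counts, in 1 table with a row per gene and a column per library, not normalized. The counting program, the annotation and the strand setting are not given in the sources used here. No column was left unassigned (0). Groups were taken from the labels, and the number in a title as the mouse.

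From these, edgeR 4.0.16 in R 4.3.3 was run on genes for which 4 or more libraries had 10 or more counts (TMM, glmQLFit, glmQLFTest, 6 groups, no covariate), with Benjamini-Hochberg adjustment over all tested genes. Of the identifiers, 55227 matched GENCODE M21. A gene was called where the fold exceeded 2 and the adjusted p was under 0.05 (tissue and interaction contrasts: adjusted p alone). CPM values are TMM-normalized, log2 CPM has a prior count of 1, and SEs were taken from the quasi-likelihood F, with normal 95% intervals. Nothing in the labels says that libraries are separate animals beyond these numbers, so p-values measure the spread between these libraries. Within groups, the 48 library pairs differed by a chi-square of 4.82 or more per degree of freedom, so none repeats another. The test was run on simulated counts with known changes. Pooled ratios carry exact binomial 95% intervals, which cover counting error only, as do the counts themselves.

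The members, the gene lists and the alternatives were chosen with earlier results of these data known. All 9 members are named, as are up to 4 genes of each pathway list, those with the largest fold change among the called genes of α-IgLON5#1 against pCtrl hippocampi, then cortices, besides Il6 and Ifng. Some are given by their list only, while Il18, Il33 and Casp1 were named after their values were seen. The 3 genes with the highest Pearson r to each tested member are named too. Alternatives were DESeq2 1.42.0, RLE, other count filters, no fold threshold, only the groups compared, only mice 8 to 17, a tissue composition covariate, and each library left out. Leaving out both libraries of a mouse was added after seeing the data. Apart from the test of every gene with at least 1 count, fits with libraries left out kept the genes of the main fit.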

Additional observations from a re-analysis of the deposited data

Results flagged for a closer look

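In each of the 6 groups the highest and lowest library of each of the 9 genes was compared with the rest of its group, by the gap to the nearest library over the range of the group (Dixon's criterion). Chance marks about 1 in 20 groups. Of 54 groups 15 were marked, always for the highest library, and 10 of them are libraries of α-IgLON5#1 mouse 8.

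In the cortex of mouse 8, Il1a read 6.11 CPM (the other 3 mice 1.38 to 1.83), Il1b 42.0 CPM (0.976 to 3.18), Il1rn 17.9 CPM (0.119 to 1.12), Il1r2 1.6 CPM (0.5 to 0.628) and Il12b 6.22 CPM (0.0476 to 0.197). In its hippocampus, Il1b read 22.6 CPM (the others 1.52 to 2.53), Il1rn 9.5 CPM (0.229 to 0.62), Il1r2 1.62 CPM (0.306 to 0.458), Tnf 7.28 CPM (0.184 to 0.901) and Il12b 3.1 CPM (0.0 to 0.143).

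Among the controls, Il1r1 read 33.4 CPM in the hippocampus of PBS mouse 14 (the others 17.9 to 20.4) and Il1r2 0.857 CPM in that of pCtrl mouse 37 (0.47 to 0.511). The other 3 rest on 1 to 3 counts where the rest of the group had none: Il1rn in the cortex of PBS mouse 33 (0.0336 CPM), Tnf in the hippocampus of pCtrl mouse 15 (0.0564 CPM) and Il12b in that of PBS mouse 32 (0.0328 CPM). No effect of α-IgLON5#1 on these genes passed the test of a difference between tissues.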

How the results depend on the processing

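With RLE, DESeq2, other count filters or no fold threshold, the number of genes called in each comparison stayed within 1.5 times that reported. Fitting only the groups compared gave 2 called genes in hippocampus and 2 in cortex against pCtrl and 3 in cortex against PBS, only mice 8 to 17 gave 0 and 0 against pCtrl, and the tissue composition covariate gave 0 in hippocampus and 1 in cortex against pCtrl, where the pCtrl hippocampi of mice 10 (-1.001) and 37 (-1.684) had scores apart from the rest. The cause of these losses was not tested. The first 2 settings also hold fewer libraries. With 1 library left out, 1 to 5 genes were called against pCtrl and 2 to 5 against PBS in hippocampus, and 2 to 6 against pCtrl and 2 to 6 against PBS in cortex, the lowest each time without mouse 8. Between pCtrl and PBS 0 were called in each setting run, and for the interactions 0 as well. Uncalled values changed sign 64 times over 7 genes, and no called value did.

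With the animal as a replicate block, 2 genes were called between PBS hippocampus and cortex and 0 for each interaction, as without it. Deviations of the tissues of 13 mice correlated at -0.0498 to 0.443 (median 0.194), above 0.1 in 8, and 8 mice correlated best with their own number. For the treatment comparisons within a tissue no paired analysis was possible because the groups share no mouse.

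Few counts limit Il1rn, Tnf and Il12b: their control groups held 1 to 13 counts in all, so that fold changes against them are loose, and for Tnf the interval of the interaction without the block spans most of the scale. Animal numbers and treatment cannot be told apart against PBS, as 1 PBS mouse falls between numbers 8 and 17.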
